A study of Mus musculus with 10 samples.

Results

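The levels of 8 ion channel genes were followed through single nuclei of the mouse paraventricular thalamus (PVT) and the tissue around it: *Trpc1*, *Trpc4*, *Trpc5*, *Trpc6* and *Trpc7* of the canonical transient receptor potential (TRP) family, *Trpm3* and *Trpm6* of the melastatin family, and *Piezo2*. They are 8 of the 33502 gene symbols in the deposited count matrix. The genes were taken by name, because their levels differed between the cell types and neuron groups of these same libraries, so those levels are given as a description and carry no test. The matrix held 20503 nuclei from 10 libraries of C57BL/6J mice aged 12 weeks, each made from the pooled tissue punches of several untreated animals, so a library and not an animal was the replicate. Of these, 6 libraries were labelled female, and the other 4 had no sex in their labels but are male in the deposited metadata and are called male here. UMIs (unique molecular identifiers, each standing for 1 captured RNA molecule) were summed per library and cell type, as annotated by the authors, and per library and neuron group.

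TRP and Piezo proteins are cation channels that carry calcium and other cations across the plasma membrane. TRPC channels open downstream of receptors coupled to Gq and phospholipase C, and TRPC4 and TRPC5 are close relatives, as are TRPC6 and TRPC7, while TRPC1 joins other TRPC subunits in mixed channels. TRPM3 responds to heat and to the steroid pregnenolone sulfate, TRPM6 carries magnesium and has a kinase domain of its own, and PIEZO2 is the mechanosensitive channel of touch and proprioception. The PVT is a midline thalamic nucleus that takes part in arousal, stress and motivated behaviour.

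The TRPC members share a short conserved stretch just after the last membrane-spanning segment, the TRP box, and its coding sequence is shown to let their likeness be read directly. The 18 bases of the box are in capitals within 66 bases of coding sequence (GRCm38, GENCODE M21), written 5′ to 3′ on the gene's own strand.
Trpc1: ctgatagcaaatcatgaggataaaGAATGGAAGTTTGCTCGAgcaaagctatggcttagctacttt
Trpc4: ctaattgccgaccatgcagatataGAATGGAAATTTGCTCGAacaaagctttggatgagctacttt
Trpc5: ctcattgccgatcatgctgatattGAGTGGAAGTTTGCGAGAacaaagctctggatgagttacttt
Trpc6: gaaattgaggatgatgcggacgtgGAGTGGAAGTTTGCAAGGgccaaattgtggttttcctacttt
Trpc7: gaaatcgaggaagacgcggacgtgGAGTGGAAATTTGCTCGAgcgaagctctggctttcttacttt

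The boxes lie in coding exons at chr9:95708363-95708380 (*Trpc1*, minus strand, exon 12), chr3:54302115-54302132 (*Trpc4*, plus strand, exon 8), chrX:144388320-144388337 (*Trpc5*, minus strand, exon 8), chr9:8656557-8656574 (*Trpc6*, plus strand, exon 9) and chr13:56783812-56783829 (*Trpc7*, minus strand, exon 9). Over their aligned coding bases, *Trpc6* and *Trpc7* were 72.7% identical and *Trpc4* and *Trpc5* 71.7%, against 62.1% to 67.3% for the other pairs. *Trpc5* overlaps *Trpc5os* on the opposite strand, *Trpc6* overlaps Gm32014, *Trpm3* overlaps Gm27151, Gm22506 and C330002G04Rik on the opposite strand and holds *Mir204* on its own, and *Trpm6* overlaps Gm24190. No source used here says whether counting used strand, and without strand the reads of such partners cannot be told apart from the member's own.

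Depth differed between the library sets. Libraries held 875 to 7213 nuclei in the male set and 1049 to 1615 in the female set, and the median neuron held 12586 to 21085 UMIs in male and 5666 to 9770 in female libraries. In all, 46 of 20457 distinct cell barcodes occurred in more than 1 library. The markers of all 8 deposited cell types were highest in the type they mark, for example *Rbfox3* in neurons with 305 ± 86.6 CPM (SD, n = 10 libraries), where CPM, the usual count unit scaled to sequencing depth, gives a gene's UMIs in a summed class at 1 common total for all classes. Neurons numbered 10410, of which 10307 had over 1000 genes and 6067 (58.9%) could be placed by markers. *C1ql3* marks PVT neurons, *Adarb2* the mediodorsal thalamus, *Nwd2* with *Tac2* the habenula and *Gad2* GABAergic neurons, while *Col12a1*, *Cadps2* and *Npsr1* divide the *C1ql3* neurons. The groups held 463 Col12a1, 420 Cadps2, 93 Npsr1, 2586 C1ql3 neurons with no subtype marker, 1542 Adarb2, 230 Gad2 and 733 Nwd2 neurons, and 4240 stayed unassigned. Sums of under 10 nuclei were left out, which left Npsr1 neurons in 2 libraries, both male, and Gad2 neurons in 7. Of genes that the subtype split did not use, *Pde3a*, which marks the same subtype as *Col12a1*, was highest in Col12a1 neurons (42.8 ± 17.3 CPM, n = 10 libraries). *Npffr1* and *Insrr*, which mark the same subtype as *Cadps2*, were highest in Cadps2 neurons (23.0 ± 13.6 and 50.2 ± 16.9 CPM). *Hcrtr1*, of the same subtype as *Npsr1*, was highest in Npsr1 neurons (23.8 CPM, n = 2). *Esr1* and *Drd2*, markers of a PVT subtype for which no group was made, were highest in Col12a1 neurons (39.9 ± 24.6 and 27.8 ± 14.9 CPM). *Drd3*, a marker of yet another subtype, was highest in Cadps2 neurons (48.2 ± 17.3 CPM), beside 40.8 ± 4.56 CPM in C1ql3 neurons with no subtype marker. The groups are therefore named by their marker and not as the study's subtypes.

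Across cell types, *Trpm3* had its highest level in astrocytes. In astrocytes its level ran from a lowest of 3387 CPM over a median of 4667 to a highest of 9203 CPM, with a mean of 5454.5 ± 1747 CPM (SD, n = 10 libraries). Fibroblasts followed at 2243 ± 1458 CPM (n = 8) and neurons at 1262 ± 787 CPM (n = 10). Astrocytes were above fibroblasts in 7 of the 8 libraries that held both, and fibroblasts above neurons in 6 of 8, so neither step of this order held in every library. The lower types lay at 400 ± 182 CPM in oligodendrocyte precursor cells (OPCs), 334 ± 306 in ependymal cells, 191 ± 270 in microglia, 170 ± 127 in oligodendrocytes and 128 ± 123 in endothelial cells, and neighbours among them did not differ beyond their spread. Within libraries, the log2 ratio of astrocytes to the mean of the other types was 4.35 ± 0.85, above 0 in 10 of 10 libraries (log2 of CPM + 1).

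The TRPC members were mostly neuronal. *Trpc5* had 275 ± 49.6 CPM in neurons, with 207 CPM in the lowest, 279 in the median and 378 in the highest library, and 116 ± 67.1 CPM in OPCs (n = 9). Neurons were above OPCs in 9 of 9 libraries, and OPCs were above ependymal cells (45.8 ± 54.7 CPM) in 8 of 8. *Trpc7* had 74.9 ± 17.2 CPM in neurons and 21.0 ± 15.1 CPM in ependymal cells, with neurons higher in 9 of 9 libraries. *Trpc1* was the most evenly spread: 143 ± 9.88 CPM in neurons, 98.4 ± 31.4 in oligodendrocytes, 82.7 ± 18.7 in OPCs and 45.9 ± 12.5 in astrocytes. Its lowest level was 18.9 ± 19.9 CPM in microglia, under ependymal cells in 9 of 9 libraries, while neurons were above oligodendrocytes in 9 of 10. *Trpc4* had 40.5 ± 8.22 CPM in neurons, 29.9 ± 26.7 in endothelial cells (n = 7) and 21.2 ± 22.9 in fibroblasts. Neurons were above endothelial cells in only 4 of 7 libraries, so this order did not hold beyond the spread.

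*Trpc6* was at a low level, at 19.6 ± 11.3 CPM in ependymal cells (n = 9) and 18.1 ± 5.42 CPM in neurons (n = 10). Ependymal cells were above neurons in 4 of 9 libraries, so the order of the leading types was not settled, and the gene did not pass the filter on low counts across cell types. The other 7 members passed it, and all 8 passed it across neuron groups and in the comparison of library sets.

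*Trpm6* and *Piezo2* were highest in fibroblasts, the rarest type with 179 nuclei. *Trpm6* had 64.0 ± 35.9 CPM there (n = 8 libraries, lowest 0, median 73.9, highest 100.1), 38.3 ± 29.8 CPM in endothelial cells and 23.8 ± 8.53 CPM in neurons. Fibroblasts were above endothelial cells in 3 of 5 libraries. *Piezo2* had 176 ± 105 CPM in fibroblasts, from 0 in 1 library over a median of 158 to a highest of 358 CPM, 23.7 ± 12.5 CPM in neurons and 11.3 ± 8.57 CPM in oligodendrocytes. Neurons were above oligodendrocytes in 10 of 10 libraries, and fibroblasts above neurons in 7 of 8. In microglia, OPCs and endothelial cells *Piezo2* had no UMI in 7 of 10, 8 of 9 and 6 of 7 libraries.

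**Figure D1:**
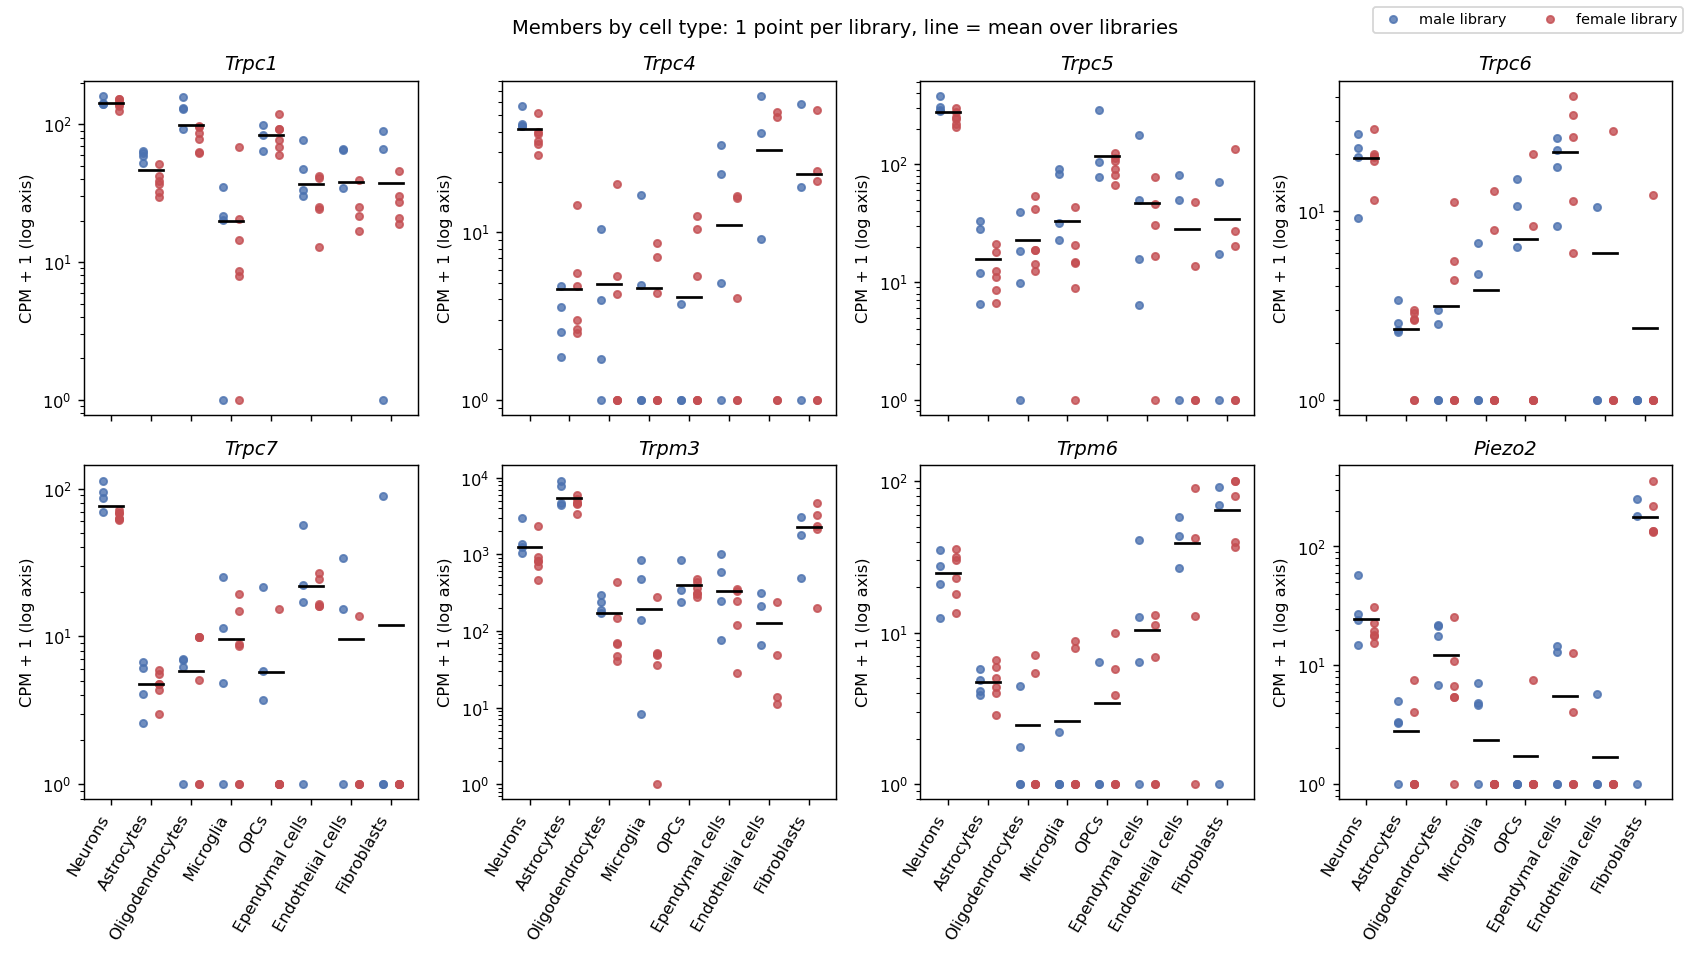
Level of each member by cell type, as CPM + 1 on a log axis. Each point is 1 library (blue male, red female) and the line is the mean over libraries; Trpm3 was highest in astrocytes (mean 5454.5 CPM), Trpm6 and Piezo2 in fibroblasts (64.0 and 176 CPM), and Trpc1, Trpc4, Trpc5 and Trpc7 in neurons.

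Among neurons, *Trpm3* was concentrated in Nwd2 neurons. Its level there was 5896 CPM in the lowest library, 7372 in the median and 12624 in the highest, with a mean of 8422 ± 2338 CPM (SD, n = 10). Col12a1 neurons came next at 1059 ± 450 CPM, with 462 CPM in the lowest library and 1905 in the highest. The Nwd2 range lay wholly above the Col12a1 range, and the log2 ratio within libraries was 3.06 ± 0.39. Gad2 neurons had 402 ± 160 CPM (n = 7), C1ql3 neurons with no subtype marker 301 ± 75.5, Adarb2 neurons 259 ± 88.8 and Cadps2 neurons 125 ± 44.1 CPM. Both Npsr1 sums were lower still, at 77.5 and 42.1 CPM. Within the *C1ql3* neurons, Col12a1 exceeded Cadps2 neurons in 10 of 10 libraries by 3.04 ± 0.73 on the log2 scale.

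*Trpc5* had nearly the opposite order. It was at 244 CPM in the lowest, 375 in the median and 439 in the highest library in Cadps2 neurons, with a mean of 355 ± 59.0 CPM (n = 10). The Npsr1 sums had 352 and 465 CPM, and C1ql3 neurons with no subtype marker had 296 ± 38.9 CPM, so these groups overlapped. Col12a1 neurons had 157 ± 33.9 CPM, below Cadps2 neurons in 10 of 10 libraries by a log2 ratio of 1.18 ± 0.40, and the ranges did not overlap. Adarb2 neurons had 102 ± 28.6 and Nwd2 neurons 21.6 ± 17.3 CPM, the lowest of any group, with Adarb2 above Nwd2 neurons in 10 of 10 libraries.

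*Trpc4*, the close relative of *Trpc5*, was instead highest where *Trpc5* was lowest. In Nwd2 neurons it had 48.6 CPM in the lowest, 108 in the median and 161 in the highest library, with a mean of 106 ± 30.2 CPM. Gad2 neurons had 89.3 ± 95.1 CPM (n = 7), a mean raised by 1 library at 298 CPM beside a median of 52.6. Within the *C1ql3* neurons, Cadps2 neurons had 57.9 ± 18.8 CPM and Col12a1 neurons 40.8 ± 21.2 CPM, higher in Cadps2 in 9 of 10 libraries, as for *Trpc5*. The neurons with no subtype marker were on average the lowest of the *C1ql3* neurons for *Trpc4*, whereas for *Trpc5* Col12a1 neurons were. Adarb2 neurons had 5.04 ± 2.33 CPM, below the neurons with no subtype marker (24.0 ± 5.94 CPM) in 10 of 10 libraries and below Nwd2 neurons by 4.18 ± 0.60 on the log2 scale.

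*Trpm6* was highest in Col12a1 neurons. Its level there ran from 52.0 CPM over a median of 67.4 to 109 CPM, with a mean of 71.7 ± 17.9 CPM (n = 10). Adarb2 neurons had 16.1 ± 5.78 and neurons with no subtype marker 15.0 ± 6.42 CPM, and Col12a1 neurons were above both in 10 of 10 libraries with no overlap of the ranges. Cadps2 neurons had no *Trpm6* UMI in 7 of 10 libraries and Nwd2 neurons none in 6 of 10. In the 8 deposited neuron clusters the order differed in part: Neurons (8) had 45.9 ± 21.5 CPM and Neurons (1), which held 438 of the 463 Col12a1 neurons, had 35.3 ± 10.3 CPM. Neurons (8) held 9 Col12a1, 187 Adarb2 and 367 unassigned neurons, so *Trpm6* was not limited to Col12a1 neurons.

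*Trpc6* was also highest in Col12a1 neurons, at 41.0 ± 20.1 CPM (lowest 0, median 43.5, highest 70.4, n = 10). The library at 0 had 19 such nuclei. Gad2 neurons had 35.1 ± 38.4 CPM, with Col12a1 above Gad2 neurons in 4 of 7 libraries, so these groups did not differ beyond their spread. Neurons with no subtype marker had 16.8 ± 6.36, Cadps2 neurons 11.9 ± 9.61, Adarb2 neurons 4.18 ± 2.85 and Nwd2 neurons 1.73 ± 2.60 CPM.

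*Piezo2* was highest in Nwd2 neurons, at 62.5 CPM in the lowest, 86.5 in the median and 186 in the highest library and 106 ± 47.1 CPM on average (n = 10). Adarb2 neurons had 21.5 ± 11.4 CPM, lower in 10 of 10 libraries by a log2 ratio of 2.38 ± 0.95, without overlap of the ranges. In the deposited clusters, Neurons (7) came second with 47.1 ± 20.7 CPM. The *C1ql3* neurons were low throughout, at 6.07 ± 1.90 CPM with no subtype marker, 5.83 ± 7.00 in Col12a1 and 1.06 ± 2.11 in Cadps2 neurons. The 49 Npsr1 neurons of the 2 libraries had no *Piezo2* UMI among 769186 UMIs, which allows up to 3.90 CPM by counting error alone.

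*Trpc7* and *Trpc1* varied least. *Trpc7* lay between 43.8 and 66.1 CPM on average in Gad2, Adarb2, Col12a1, Nwd2 and unmarked C1ql3 neurons. Neighbours in this order did not differ beyond their spread. The unmarked C1ql3 neurons were above the mean of the other groups in 10 of 10 libraries, by a log2 ratio of 0.59 ± 0.37. The Npsr1 sums had 109 and 77.5 CPM, each above the unmarked C1ql3 neurons of its library. Cadps2 neurons had 26.9 ± 10.4 CPM, below the neurons with no subtype marker (66.1 ± 12.2 CPM) in 10 of 10 libraries. *Trpc1* averaged 99.9 to 142 CPM in 6 groups and 70.0 ± 28.5 CPM in Nwd2 neurons, where Col12a1 neurons were above in 9 of 10 libraries.

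**Figure D2:**
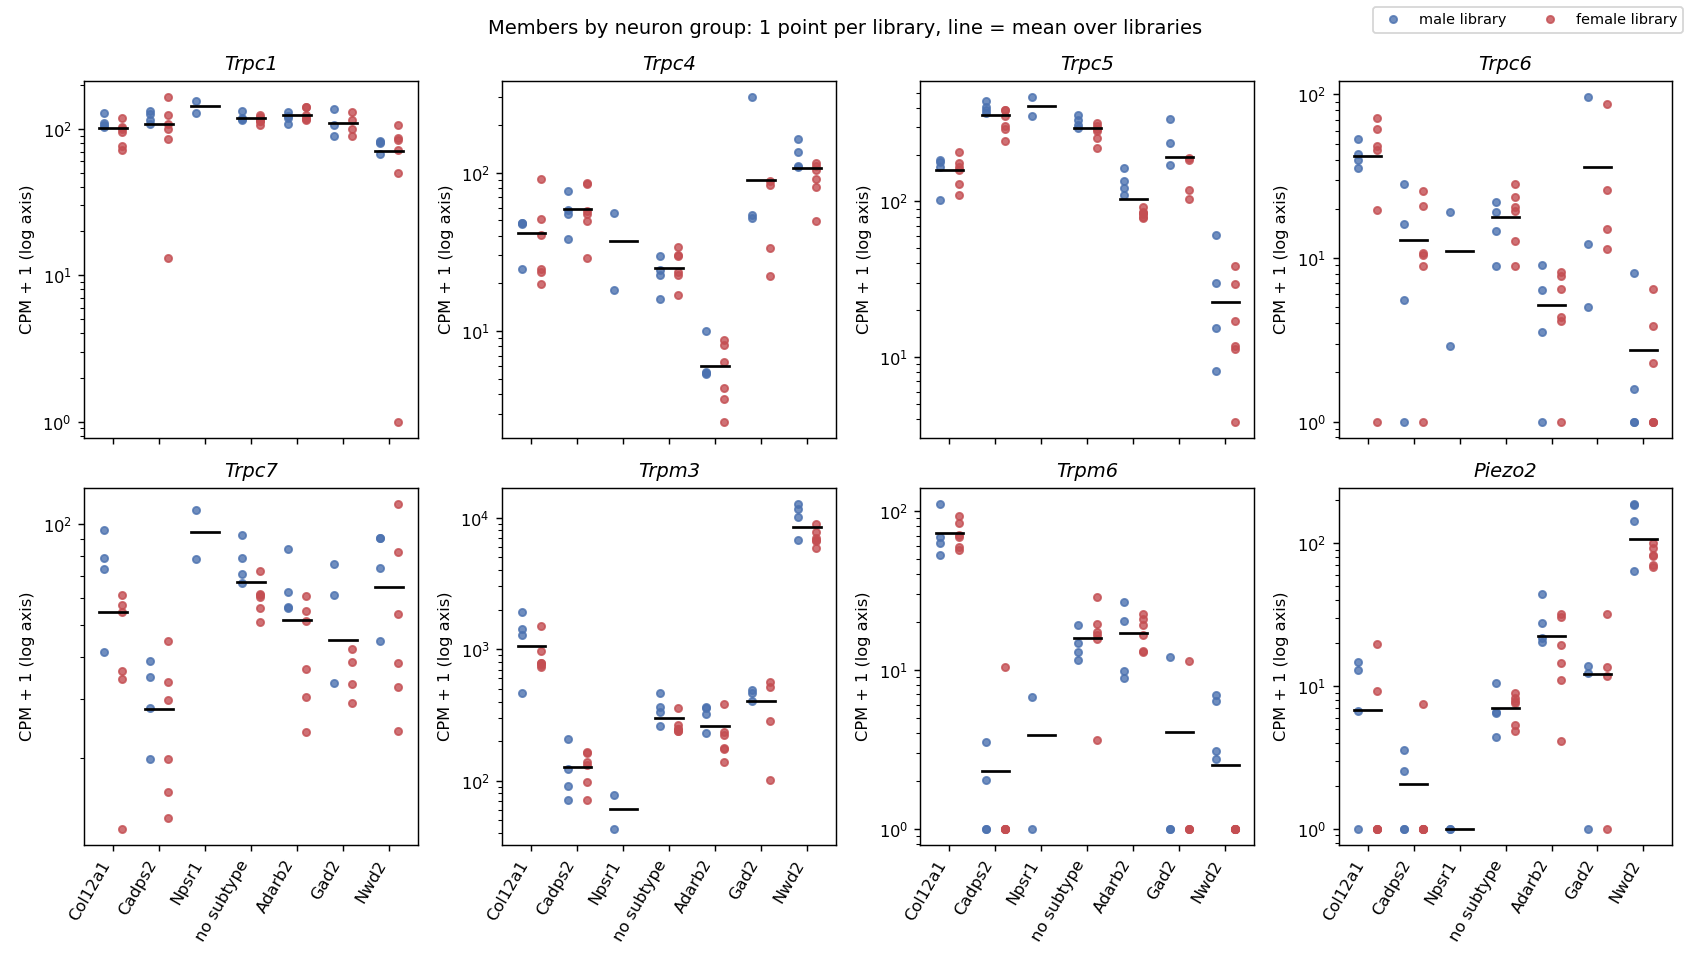
Level of each member by neuron group, as CPM + 1 on a log axis. Each point is 1 library (blue male, red female) and the line is the mean over libraries; Trpm3, Trpc4 and Piezo2 were highest in Nwd2 neurons (8422, 106 and 106 CPM), Trpm6 and Trpc6 in Col12a1 neurons (71.7 and 41.0 CPM), and Trpc5 was lowest in Nwd2 neurons (21.6 CPM).

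With a wider marker rule, chosen after the group sizes had been seen, Npsr1 neurons could be summed in 7 libraries. They then had 305 ± 115 CPM of *Trpc5*, 83.2 ± 57.4 CPM of *Trpm3* and no *Piezo2* UMI in any of these libraries. Col12a1 neurons under that rule had 68.4 ± 18.9 CPM of *Trpm6* and 34.4 ± 6.28 CPM of *Trpc6*, close to the levels above. Some other levels moved more. *Trpm3* had 418 ± 206 CPM in Adarb2 neurons and 195 ± 128 CPM in Cadps2 neurons. Adarb2 neurons then lay on average above C1ql3 neurons with no subtype marker (298 ± 76.7 CPM), the reverse of the order above. *Trpc7* had 37.7 ± 8.28 CPM in Cadps2 neurons.

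The share of all neuronal UMIs of a gene that fell in a group weighs level by group size. Nwd2 neurons were 9.00 ± 6.50% of neurons and held 6.39 ± 5.35% of neuronal UMIs, yet 47.6 ± 14.8% of the *Trpm3*, 32.4 ± 19.0% of the *Piezo2* and 19.7 ± 13.4% of the *Trpc4* UMIs (n = 10 libraries). They held 0.49 ± 0.34% of the *Trpc5* UMIs. Col12a1 neurons held 3.62 ± 1.67% of all neuronal UMIs, 14.7 ± 6.20% of the *Trpm6* and 11.0 ± 5.77% of the *Trpc6* UMIs. Cadps2 neurons held 4.00 ± 1.44% of all UMIs, 6.99 ± 2.42% of *Trpc5*, 8.03 ± 4.15% of *Trpc4* and 0.18 ± 0.34% of *Trpm6* UMIs. *Trpc1* had 18.7 ± 3.74% of its UMIs against 18.8 ± 3.96% of all UMIs in Adarb2 neurons, but 4.19 ± 3.63% against 6.39 ± 5.35% in Nwd2 neurons, where its share was the lower in 10 of 10 libraries. Unassigned neurons held 30.9% to 48.7% of every member's UMIs on average.

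**Figure D3:**
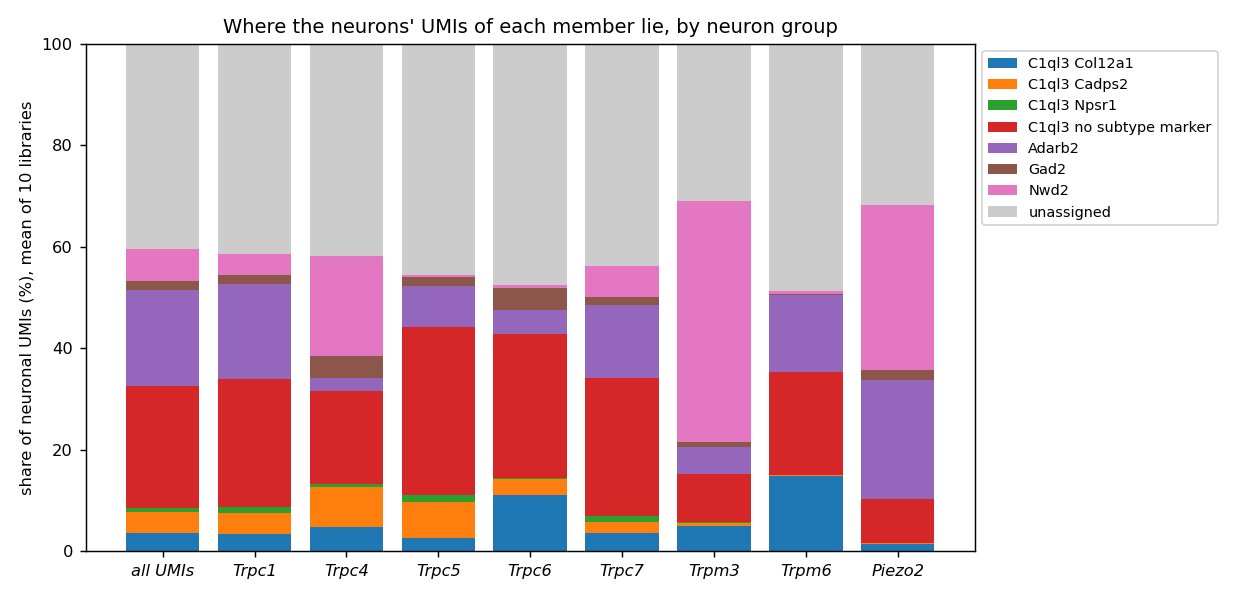
Share of each member's neuronal UMIs held by each neuron group, in percent, as the mean over 10 libraries; the first bar gives the share of all neuronal UMIs. Nwd2 neurons (pink) held 47.6% of Trpm3 and 32.4% of Piezo2 UMIs against 6.39% of all UMIs.

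At the level of single nuclei, nuclei of at least 2000 UMIs were thinned to 2000 so that depth was the same in all classes. Nuclei under 2000 UMIs were left out, and the median oligodendrocyte held 2321 UMIs. Oligodendrocytes served as the class of comparison, though they were not free of these genes. A *Trpm3* UMI was seen in 99.4 ± 0.84% of Nwd2 neurons, 98.3 ± 0.89% of astrocytes and 61.3 ± 11.3% of Col12a1 neurons, against 14.3 ± 8.39% of oligodendrocytes. The share in Npsr1 neurons, 11.8 ± 4.53% (n = 2), was near that of oligodendrocytes. *Trpc5* was seen in 49.3 ± 4.55% of Cadps2 neurons against 3.23 ± 2.57% of oligodendrocytes. Shares were 12.2 ± 2.79% for *Trpm6* in Col12a1 neurons (oligodendrocytes 0.26 ± 0.46%), 16.6 ± 4.75% for *Piezo2* in Nwd2 neurons (2.02 ± 1.20%) and 15.7 ± 3.16% for *Trpc4* in Nwd2 neurons (0.55 ± 0.85%). *Trpc6* reached 7.93 ± 3.99% in Col12a1 neurons (0.57 ± 0.95%). Without thinning the shares in these groups were 99.8% for *Trpm3* in Nwd2, 88.4% for *Trpc5*, 41.2% for *Trpm6*, 35.4% for *Piezo2*, 32.7% for *Trpc4* and 30.8% for *Trpc6*. For *Piezo2* in Adarb2 neurons the thinned share of 3.28 ± 1.39% was close to the oligodendrocyte share. That does not place Adarb2 neurons at background. Oligodendrocytes had more *Piezo2* (11.3 ± 8.57 CPM) than astrocytes (1.82 ± 2.26 CPM). Adarb2 neurons were above C1ql3 neurons with no subtype marker in 9 of 10 libraries.

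*Piezo2* and *Trpc4*, both highest in Nwd2 neurons as a group, were mostly seen in different nuclei of it. Here nuclei of at least 5000 UMIs, 517 of the 733 Nwd2 neurons, were thinned to 5000 and the others were left out. A *Trpc4* UMI was found in 13.9 ± 5.84% of these Nwd2 neurons with a *Piezo2* UMI and in 44.9 ± 8.18% of those without (SD, n = 6 libraries with enough such nuclei). The share with *Piezo2* was the lower in 6 of 6 libraries, from 5.71% against 31.6% in male 1 to 22.2% against 54.5% in female 5. These nuclei were not chosen on this pairing, but the pattern was looked for after both levels were known, and no test was made over nuclei. *Piezo2* with *Trpc4* was examined in Nwd2 neurons alone. Of other pairs, *Trpc5* was found in 85.2 ± 13.6% of Cadps2 neurons with a *Trpc4* UMI and 77.5 ± 13.7% of those without, and *Trpc6* in 15.7 ± 9.82% of Col12a1 neurons with *Trpm6* and 14.7 ± 8.29% without.

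Without thinning, 235 Nwd2 neurons had *Piezo2* and no *Trpc4* UMI (median 9473 UMIs per nucleus) and 203 had *Trpc4* and no *Piezo2* UMI (median 8269). Both were seen in 63 (median 11911) and neither in 232 (median 4470.5). Between the first and the second of these sets, *Trpm3* was lower in the nuclei with *Piezo2*, at 7210 ± 1308 against 10699 ± 1349 CPM, in 7 of 7 libraries. *Trpc7* had 36.1 ± 27.1 against 85.8 ± 27.5 CPM and was higher with *Piezo2* in 1 of 7 libraries. *Trpc1* had 74.6 ± 11.0 against 73.5 ± 21.7 CPM, and *Tac2*, which encodes neurokinin B, 967 ± 580 against 806 ± 560 CPM, both higher with *Piezo2* in 4 of 7 libraries. Among genes picked after their values were seen, *Cdh20*, a cadherin, had 130 ± 36.4 against 2.89 ± 3.35 CPM (higher in 7 of 7), *Col25a1*, a membrane collagen, 224 ± 103 against 1865 ± 181 CPM (higher in 0 of 7), and *Tac1*, which encodes substance P, 1.03 ± 1.83 against 52.2 ± 66.9 CPM (higher in 1 of 7).

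**Figure D4:**
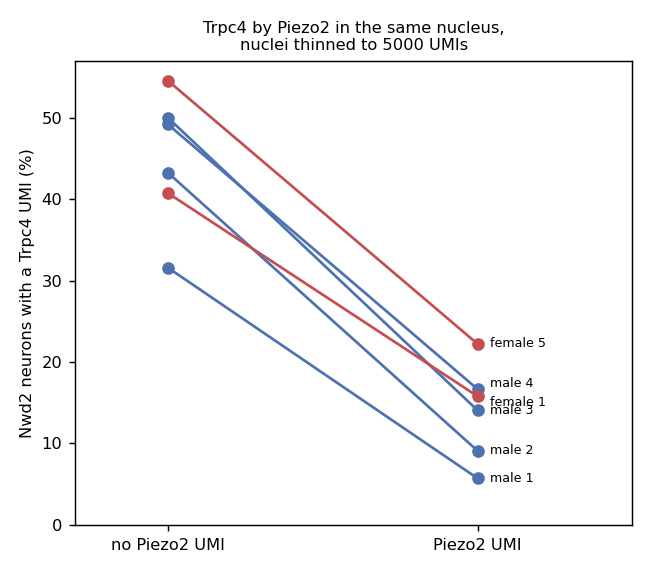
Percent of Nwd2 neurons with a Trpc4 UMI among nuclei without (left) and with (right) a Piezo2 UMI. Nuclei of at least 5000 UMIs were thinned to 5000 and the others were left out. Each line is 1 library (blue male, red female). The share was lower with Piezo2 in all 6 libraries, on average 13.9% against 44.9%.

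Female and male libraries were compared over all neurons, a contrast the choice of members did not use, with edgeR's quasi-likelihood test. Of 15278 genes, 2316 (15.2%) were called at an adjusted p under 0.05, and the median of all genes was -0.0053 on the log2 scale. Without male 2, 3959 genes were called. *Trpc7* was the member called: it fell by 0.45 ± 0.11 (SE) on the log2 scale in female libraries, with adjusted p = 0.011. Female libraries ran from 46.4 over a median of 50.5 to 52.9 CPM and male libraries had 55.1, 65.0, 69.4 and 83.2 CPM, so the sets did not overlap. Among C1ql3 neurons alone it fell by 0.40, with adjusted p = 0.021. Over 15 alternatives of scaling, filter, tool and libraries its adjusted p in edgeR or DESeq2 ran from 0.0012 to 0.033, and the call was lost in the other one, with the replicate number as a block (adjusted p = 0.135). That fit also left out female 5 and female 6, so the block and the loss of these libraries cannot be told apart.

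*Trpc5* was at 192 ± 22.6 CPM in female and 238 ± 29.3 CPM in male libraries, a log2 difference of -0.31 ± 0.11 with adjusted p = 0.078, and it was called only when no filter on low counts was used (adjusted p = 0.036, the range over the alternatives being 0.036 to 0.253). *Trpm3* differed by -0.64 ± 0.43 with adjusted p = 0.379. Its female libraries had 346 to 699 CPM in 5 cases and 1912 CPM in female 1, and without that library the difference was -1.12 with adjusted p = 0.024, where the other alternatives reached 0.791. Nwd2 neurons, where *Trpm3* was highest, were 1.97% to 17.7% of neurons in female libraries (median 6.03%) and 3.23% to 22.0% in male libraries (median 10.7%), and their part in this result was not tested. *Piezo2* differed by -0.53 ± 0.33 (adjusted p = 0.344) and *Trpc4* by -0.28 ± 0.17 (adjusted p = 0.322). *Trpc1*, *Trpc6* and *Trpm6* differed by -0.003 ± 0.077, 0.042 ± 0.260 and 0.10 ± 0.30 on the log2 scale, all with adjusted p over 0.8. The library sets also differed in depth, and any other difference between the sets, such as in annotation, would coincide with sex. Sex cannot be told apart from depth or from such differences.

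**Figure D5:**
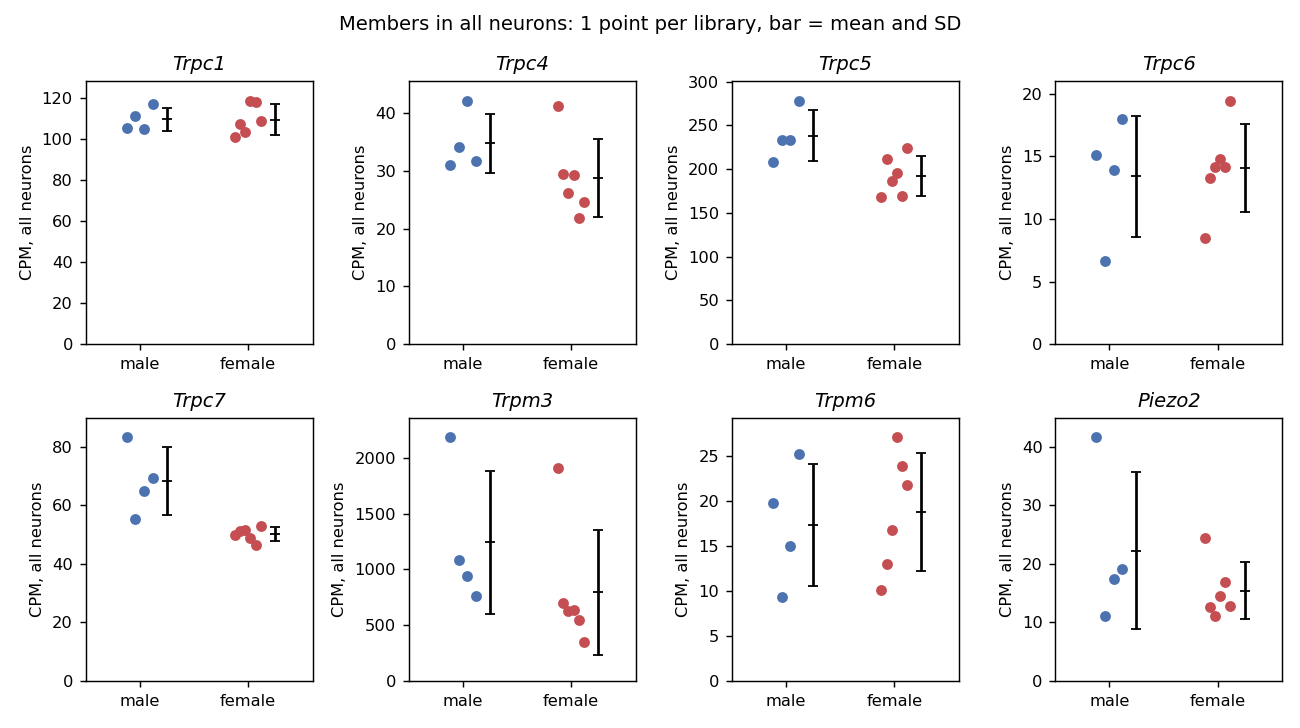
Level of each member in CPM over all neurons of each library, male at left and female at right; each point is 1 library and the bars give mean and SD. Trpc7 ran from 46.4 to 52.9 CPM in female and from 55.1 to 83.2 CPM in male libraries, without overlap, and the other members overlapped.

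The contrast between classes was also compared between the library sets. The log2 ratio of each member's leading class to the mean of the other classes was set against the same ratio in the other sex with a two-sided exact permutation test over libraries, 16 ratios in all. Npsr1 neurons, summed in 2 libraries, were not taken as a leading class. On average they were the highest group for *Trpc1*, *Trpc5* and *Trpc7* (142, 409 and 93.3 CPM). The lowest unadjusted p was 0.062 and the lowest adjusted p 0.406, the latter for *Trpm3* and *Piezo2* in Nwd2 neurons (4.66 against 5.03 and 4.14 against 4.66) and *Piezo2* in fibroblasts (6.24 against 2.93). A p over the threshold does not show that the sets were the same. With the 8 deposited neuron clusters in place of the marker groups, the same exact permutation test gave an unadjusted p of 0.0048 for *Trpm6* in Neurons (8), the smallest that 210 splits allow, with adjusted p = 0.038 over these 8 ratios and 0.114 over all 24. The log2 ratio there was 2.87 to 3.67 in female and -0.14 to 2.41 in male libraries, with no overlap, the lowest in male 2, whose 16 nuclei of this cluster held 1 *Trpm6* UMI. *Piezo2* in Neurons (6) (3.10 in female against 3.64 in male libraries) and *Trpc7* in Neurons (1) (0.68 against 0.40) had unadjusted exact p of 0.033 and 0.038, each 0.102 adjusted over the 8 ratios.

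The other TRP and Piezo genes give the setting of these members. Of 22, 7 could be tested across cell types and 10 across neuron groups, and *Trpc2* had no UMI. Calls needed an adjusted p under 0.05 and a log2 difference over 0.5 from the mean of the other classes. In neurons 4 of 7 were called higher, where 34.8% of all genes were called higher and 23.4% lower. *Trpm2*, which opens on oxidative stress, was higher by 2.47 ± 0.18 (SE) and *Trpv2* by 1.95 ± 0.14. In astrocytes 3 were lower, where 19.7% of all genes were lower and 21.5% higher, with *Trpv2* at -2.52 ± 0.26 and *Trpm2* at -1.88 ± 0.35. In microglia 3 were higher (21.3%) and 2 lower (29%). *Piezo1*, the relative of *Piezo2*, was higher there by 5.01 ± 0.27, and *Trpm2* by 3.06 ± 0.23. In endothelial cells 2 were higher, where 17.4% of all genes were higher and 22.9% lower, with *Piezo1* at 4.80 ± 0.40.

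Among neuron groups, 3 of 10 other TRP genes were called higher in Adarb2 neurons, where 13.3% of all genes were higher and 12.5% lower, with *Trpm2* at 1.23 ± 0.10. In Nwd2 neurons 2 of 10 were higher (22.9% of all genes) and 4 lower (18.5%). These included *Trpm2* at -1.55 ± 0.17, *Trpv2* at -0.96 ± 0.16 and, as a higher call, *Trpm1*, which rested on 87 UMIs over all nuclei and whose fitted fold depends on the prior count. The adjusted p (edgeR) of the TRP and Piezo genes named in these comparisons was at most 3.22e-06.

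Genes of Gq, phospholipase C and store-operated calcium entry, upstream of TRPC channels, split between the groups. In Nwd2 neurons 5 of 19 tested were higher (22.9% of all genes) and 10 lower (18.5%), with a median of -0.58 against 0.12 for all genes. *Plcb1*, a phospholipase C, was lower there by a log2 difference of -2.79 ± 0.13 and *Itpr1*, an inositol trisphosphate receptor, by -2.48 ± 0.14. In Adarb2 neurons 7 were higher (13.3% of all genes) and 4 lower (12.5%). In Cadps2 neurons 3 were higher and 4 lower, where 10.8% of all genes were higher and 6.39% lower. In Col12a1 neurons 4 were higher and 1 lower (6.94% of all genes higher, 4.45% lower), with *Itpr1* at 0.98 ± 0.10 and *Plcg2* at 1.03 ± 0.22. In the 2 Npsr1 sums 2 were higher and 2 lower (3.11% of all genes higher, 1.32% lower), with *Plcb1* at 0.99 ± 0.17. Across cell types, 9 of 18 were higher (34.8% of all genes) and 5 lower (23.4%) in neurons, with *Itpr2*, another inositol trisphosphate receptor, at -3.79 ± 0.21, and in microglia 6 were higher (21.3%) and 7 lower (29%), with *Plcg2* at 5.57 ± 0.15. Between the library sets, *Orai2*, a store-operated channel subunit, differed by -0.39 ± 0.11 (adjusted p = 0.026) and the scaffold *Slc9a3r1* by 0.69 ± 0.21 (adjusted p = 0.043) in female libraries, and both calls were lost in several alternatives.

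Of 12 magnesium transport genes, the setting of *Trpm6*, 4 were higher (22.9% of all genes) and 3 lower (18.5%) in Nwd2 neurons, with *Cnnm2*, a magnesium transporter, at 3.50 ± 0.08 and *Egf*, which encodes a growth factor that raises TRPM6 activity, at 3.72 ± 0.17. In Col12a1 neurons, where *Trpm6* was highest, 1 was higher (*Cnnm1*, 0.58 ± 0.095) and 1 lower (*Cnnm2*, -0.55 ± 0.12), beside 6.94% and 4.45% of all genes. In fibroblasts 2 of 8 tested were higher (10.7% of all genes higher, 11.5% lower), with *Egfr* at 4.96 ± 0.27, and in astrocytes 4 were higher (21.5%) and 2 lower (19.7%), with *Egfr* at 4.86 ± 0.16. Of 10 mechanosensitive channel and Piezo partner genes, 4 could be tested across neuron groups. *Mdfic*, which encodes a Piezo-binding subunit, was higher in Cadps2 neurons by 3.40 ± 0.27, where *Piezo2* was near 0, and in fibroblasts by 3.19 ± 0.40, where *Piezo2* was highest. *Tmem150c* was lower in Nwd2 neurons, at -3.15 ± 0.15, and higher in neurons than in the other cell types by 3.12 ± 0.14. Across classes, the adjusted p (edgeR) of the genes of the calcium, magnesium and Piezo partner lists named up to here was at most 0.000254.

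For each member the genes with the most similar pattern were found among 13907 genes, by Pearson's r of log2 CPM over 59 library sums of the neuron groups. The sums come from the same 10 libraries, so r is a description. *Trpc5* was nearest Gm32647 (r = 0.94), the potassium channel *Kcnh7* (0.94) and the nuclear receptor *Rorb* (0.92), and its r with *Trpm3* was -0.85 and with *Piezo2* -0.83. *Trpm3* was nearest *Stxbp5l* (0.93), *Dock4* (0.90) and the guidance ligand *Slit2* (0.90), and its r with *Piezo2* was 0.72. *Trpc4* was nearest *Slc35f4* (0.90), *Vat1l* (0.87) and *Epb41l1* (0.84). Among the genes most like *Piezo2* were *Dok6* (0.86) and *Usp28* (0.86). *Trpm6* was nearest *Sema5b* (0.87), *March3* (0.85) and *Igf1* (0.84), and *Trpc6* nearest the estrogen receptor *Esr1* (0.77), *Dgkg* (0.73) and *Lypd6* (0.73). *Trpc1* followed *Fam13b* (0.90), *Otud4* (0.87) and *Uggt1* (0.87), and *Trpc7* followed *Chgb* (0.67), *Ankrd24* (0.66) and *Grb14* (0.65).

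*Trpc6* and *Trpm6*, the members highest in Col12a1 neurons, are shown with the 250 bases before their start (RefSeq, GRCm38.p6), so that their starts can be read side by side. The motifs searched on both strands were TATAAA, held by 12.4% of 32851 promoters of that length, CCAAT, held by 33.8%, GGGCGG, held by 32.7%, TGACG, held by 17.8%, CACGTG, held by 6.02%, and TGANTCA, held by 6.75%. The only match in either sequence is in capitals, TGACG in *Trpc6*.
Trpc6 (chr9:8543892-8544141, plus strand): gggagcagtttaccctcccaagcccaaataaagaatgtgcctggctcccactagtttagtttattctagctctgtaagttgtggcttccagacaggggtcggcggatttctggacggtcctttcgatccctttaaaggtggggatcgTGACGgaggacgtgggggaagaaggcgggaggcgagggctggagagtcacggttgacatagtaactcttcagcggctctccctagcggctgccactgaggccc
Trpm6 (chr19:18749480-18749729, plus strand): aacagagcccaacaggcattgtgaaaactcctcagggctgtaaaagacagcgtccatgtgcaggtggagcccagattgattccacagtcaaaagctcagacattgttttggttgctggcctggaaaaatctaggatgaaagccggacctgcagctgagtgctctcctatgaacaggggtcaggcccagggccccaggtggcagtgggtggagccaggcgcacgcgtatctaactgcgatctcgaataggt
They share no motif of the set, and no factor's binding was measured here.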

How the data were processed

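Nuclei of tissue punches were sequenced by the 10x Genomics method, and the authors deposited 1 matrix of raw counts (UMIs per gene and nucleus) with a cluster name for each nucleus. Per the labels' processing notes, reads were counted with Cell Ranger 6.1.1 on mm10. The authors removed nuclei with few genes or many mitochondrial UMIs and clusters of doublets, so no doublet caller was run here. Of the deposited metadata, 22 columns were not used.

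UMIs were summed per library and cell type, and per library and neuron group, leaving out sums of under 10 nuclei. A neuron took the regional marker (*C1ql3*, *Adarb2*, *Gad2*, *Nwd2*) whose level, scaled to the library's mean over neurons with a UMI of it, was highest, at least 0.5 and at least 2 times the next. Among *C1ql3* neurons the subtype marker needed a scaled level of at least 1, at least 2 UMIs and 2 times the next. Levels are CPM with TMM scaling, made separately for cell types, neuron groups and all neurons, and are not comparable between these or between genes. The CPM of Nwd2 neurons split by *Piezo2* and *Trpc4* UMIs were scaled to total UMIs alone, without TMM. Whether an order of classes held was read within libraries. Tests used edgeR 4.0.16 (quasi-likelihood, filterByExpr, library as a block across classes, Benjamini-Hochberg over all genes tested) in R 4.3.3, and DESeq2 1.42.0 as an alternative. The edgeR tests were also run on simulated data. The labels do not say which animals a library holds, so p-values measure the spread between libraries. Across classes this is the spread left after the library block, and all classes of a fit share 1 estimate of it. The tests of Npsr1 neurons, with 2 libraries, rest on that shared estimate too. Intervals and limits cover counting error only.

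The members, markers and lists were chosen with earlier results of these data known. Named beside the members were up to 6 called genes of each list per comparison, those with the largest difference, and the 3 most similar genes of each member. Some genes that this rule takes are not reported here. Sequences are from GENCODE M21 and RefSeq on GRCm38, and coordinates are given on that build.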

Additional observations from a re-analysis of the deposited data

Results flagged for a closer look

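In groups of at least 4 libraries, the highest or lowest library was compared with the rest by Dixon's criterion at the 95% level. This was done over 46 groups, of which chance marks about 1 in 20. *Trpc4* in neurons, in the fit across cell types, was at 55.6 CPM in male 3 and between 41.9 and 43.2 CPM in the other 3 male libraries. *Trpm3* over all neurons was at 1912 CPM in female 1 and between 346 and 699 CPM in the other 5 female libraries. *Trpm6* in the deposited cluster Neurons (8), as the log2 ratio to the mean of the other clusters, differed between the library sets by 1.58 (3.23 in female and 1.65 in male libraries, no overlap), with adjusted p = 0.038 over the 8 cluster ratios and 0.114 over all 24 ratios by an exact permutation test.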

How the results depend on the processing

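Counts of calls over all classes were 33285 across cell types and 16428 across neuron groups, and 2316 between the library sets. Without a filter on low counts they were 52960 and 4455 for the first and the last, with nuclei of at least 5000 UMIs 19902 across cell types, with female libraries alone 9097 across neuron groups, and with genes of at least 20 UMIs in each set 638 between the sets. Leaving out 1 library gave 30908 to 33613, 13066 to 16313 and 1991 to 3959, the last without male 2. Other settings stayed within 1.5 times; the cause was not tested.

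A member's leading class was taken as above. Its log2 ratio to the mean of the other classes kept its sign in 246 alternatives for 16 ratios. Of these alternatives, 6 moved by more than the spread between libraries. *Trpc4* in Nwd2 neurons, 1.95, was 2.60 under the stricter marker rule and 2.74 in the deposited clusters; *Trpc5* in Cadps2 neurons, 1.72, was 2.18 under the stricter rule. *Trpm6* in Col12a1 neurons, 4.02, became 2.60 in the deposited clusters, where Neurons (8) led. *Piezo2* in Nwd2 neurons, 4.35, was 3.81 with nuclei of at least 5000 UMIs and 3.32 in the deposited clusters. Leaving out 1 library gave ranges of 1.79 to 2.01 (*Trpc1*), 3.23 to 3.47 (*Trpc4*), 3.68 to 4.04 (*Trpc5*) and 3.96 to 4.33 (*Trpc7*) in neurons, 2.19 to 2.57 for *Trpc6* in ependymal cells, 4.12 to 4.44 for *Trpm3* in astrocytes, and 2.86 to 3.97 (*Trpm6*) and 4.69 to 6.06 (*Piezo2*) in fibroblasts. In neuron groups the ranges were 0.32 to 0.53 (*Trpc1*, Adarb2), 1.86 to 2.04 (*Trpc4*, Nwd2), 1.64 to 1.79 (*Trpc5*, Cadps2), 1.89 to 2.65 (*Trpc6*, Col12a1), 0.51 to 0.64 (*Trpc7*, no subtype marker), 4.76 to 4.86 (*Trpm3*, Nwd2), 3.97 to 4.10 (*Trpm6*, Col12a1) and 4.29 to 4.47 (*Piezo2*, Nwd2).

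Replicate numbers 1 to 4 occur in both library sets. Same-numbered libraries correlated at -0.076, -0.054, -0.114 and 0.078 after removing set means, so the numbers were not taken to pair them. The fit with the replicate block held only the libraries numbered 1 to 4, and so left out female 5 and female 6. In it 1712 genes were called, and *Trpc7* was at -0.44 with adjusted p = 0.135 (edgeR). In the comparison of the sets, some members changed sign. *Trpc4*, at -0.28 over all neurons, was at 0.10 among C1ql3 neurons. The others that changed sign were nearer 0 over all neurons. *Trpc6* was at -0.020 with no filter, -0.051 with the block and -0.087 without female 6, and leaving out 1 library gave -0.162 (male 2) to 0.211 (male 4). *Trpm6* was at -0.061 with the block and -0.034 without female 4, and leaving out 1 library gave -0.090 (male 2) to 0.337 (male 4). *Trpc1* was at 0.0041 without male 2, 0.019 without female 1 and 0.014 without female 3, and leaving out 1 library gave -0.039 (male 1) to 0.024 (male 4). Of the listed genes, *Egfr* in microglia turned from -1.15 (adjusted p = 0.0255, edgeR) to 0.86 with nuclei of at least 5000 UMIs. None of these reversed values passed the test in the main comparison except *Egfr*. Low depth limits *Trpc6*, *Trpm6* and *Piezo2* most, with 1951, 2586 and 2572 UMIs in all.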
